A study of Mus musculus with 2 samples.

Results

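The platelet-derived growth factor (PDGF) system of the mouse wound was followed through its 6 classical genes, the ligands *Pdgfa*, *Pdgfb*, *Pdgfc* and *Pdgfd* and the receptors *Pdgfra* and *Pdgfrb*. All 6 were found by symbol among the 31053 genes of both count matrices, and each matched 1 row. The data were single-cell RNA sequencing counts of 2 libraries, 1 per condition, each made from live (7AAD-negative) cells of 3 pooled C57BL/6 mice of 7 to 9 weeks. The tissue was that of back skin wounds, collected with a 10 mm punch on day 5 after wounding, and RNA molecules were counted by unique molecular identifiers (UMIs). The sample labels give the genotype *Mrc1-DTR* to both libraries, with PBS as the treatment of the first and diphtheria toxin (DTX) as that of the second, whereas the methods describe the control mice as wild-type mice that also received the toxin. In *Mrc1-DTR* mice, *Mrc1*, which encodes the mannose receptor CD206 of macrophages, drives a receptor for diphtheria toxin, so that the toxin can reach every cell type that expresses *Mrc1*. The libraries are called PBS-labelled and DTX-labelled here, because *Mrc1* was not lower over all cells of the second. In macrophage-like cells *Mrc1* stood at 493 CPM (UMIs scaled to 1000000 per class) in the PBS-labelled and 428 CPM in the DTX-labelled library, and over all cells it stood at 65.4 and 267.8 CPM. In tissue cell suspensions, fewer cells of a type and less RNA per cell both lower a level taken over all cells, so levels are given within cell classes.

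PDGF ligands are secreted dimers that signal through the receptor tyrosine kinases PDGFRα, the product of *Pdgfra*, and PDGFRβ, the product of *Pdgfrb*. PDGF-A and PDGF-C act mainly on PDGFRα, PDGF-B binds both receptors and PDGF-D acts mainly on PDGFRβ, while PDGF-C and PDGF-D are secreted in a latent form that proteases must cleave. In skin, PDGFRα is a general receptor of dermal fibroblasts, and PDGF-B from endothelium holds PDGFRβ-bearing pericytes on vessels.

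The deposited matrices held 12058 cells with 105511870 UMIs in the PBS-labelled and 11031 cells with 81858751 UMIs in the DTX-labelled library. Cells were kept with 500 or more genes and no more than 6% of mitochondrial UMIs, and after removal of predicted doublets 7944 and 6613 cells with medians of 9579.5 and 7286 UMIs were used. Clusters made without the 6 genes were named from marker genes, and in all 8 classes compared every listed marker was higher than in the other cells of the library, with none at 0. The names came from these same markers, so this was not an independent check of them. Fibroblast-like cells made up 38.6% of the PBS-labelled and 9.93% of the DTX-labelled library, macrophage-like cells 21.4% and 67.1%, and epithelial-like cells 26.0% and 3.55%. Of the barcodes of used cells, 13 occurred in both libraries. Fibroblast and keratinocyte RNA in macrophage-like cells was more frequent in the PBS-labelled library. These cells held 964 CPM of 10 fibroblast genes against 202 CPM. Of 10 keratinocyte genes they held 596 CPM against 177 CPM, with no gene of either list at 0. *Mrc1* went the other way, with 2.94 and 15.2 CPM in fibroblast-like and 2.84 and 15.7 CPM in epithelial-like cells. With 1 library per condition, differences between mice or captures could not be estimated and no test was made. All intervals are 95% intervals and cover counting error only (exact Poisson for levels, exact conditional binomial for ratios, Clopper-Pearson for shares).

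*Pdgfa* (ENSMUSG00000025856, chromosome 5 of GRCm38, 138976014 to 138997370) encodes the chain of PDGF-AA. Its highest levels were in the cells of the vessel wall. Pericyte-like cells held 884 CPM (824 to 948, 791 UMIs in 61 cells) in the PBS-labelled and 823 CPM (780 to 867, 1382 UMIs in 112 cells) in the DTX-labelled library. Endothelial-like cells held 616 CPM (569 to 665, 73 cells) and 1089.9 CPM (1017 to 1166, 54 cells). The next highest of the 8 compared classes, NK- or T-like cells, had 51.0 and 46.6 CPM, and no interval of another class reached those of the vessel wall. With every cell thinned to 2000 UMIs, *Pdgfa* was detected in 59.6% of 57 and 63.9% of 108 pericyte-like cells and in 41.4% of 70 and 76.9% of 52 endothelial-like cells. Without thinning these shares were 90.2% and 94.6%, and 78.1% and 96.3%.

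Pericyte-like and endothelial-like cells together were 134 of 7944 and 166 of 6613 cells, or 1.69% and 2.51%. They held 49.0% (47.2% to 50.8%) of all *Pdgfa* UMIs of the PBS-labelled and 63.3% (61.7% to 64.9%) of those of the DTX-labelled library. Macrophage-like cells, although far more numerous, held 12.1% (11.0% to 13.4%) and 22.8% (21.4% to 24.2%). This distribution rested on the upper limit of genes per cell. The methods state a limit of 2000 genes, which only 17 of the 134 and 9 of the 166 vessel wall cells met, since the median pericyte-like cell had 3492 and 3512.5 genes. The paper's cell numbers after quality control equal those of the whole deposited matrices, whereas that limit left 2480 of the cells used here in each library. Whether the study's own cells met the limit is therefore not clear. Cells with at most 2000 genes held 12.8% and 8.21% of all *Pdgfa* UMIs, and when only those cells were clustered, macrophage-like cells held 70.6% and 85.1% of what was left.

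**Figure D1:**
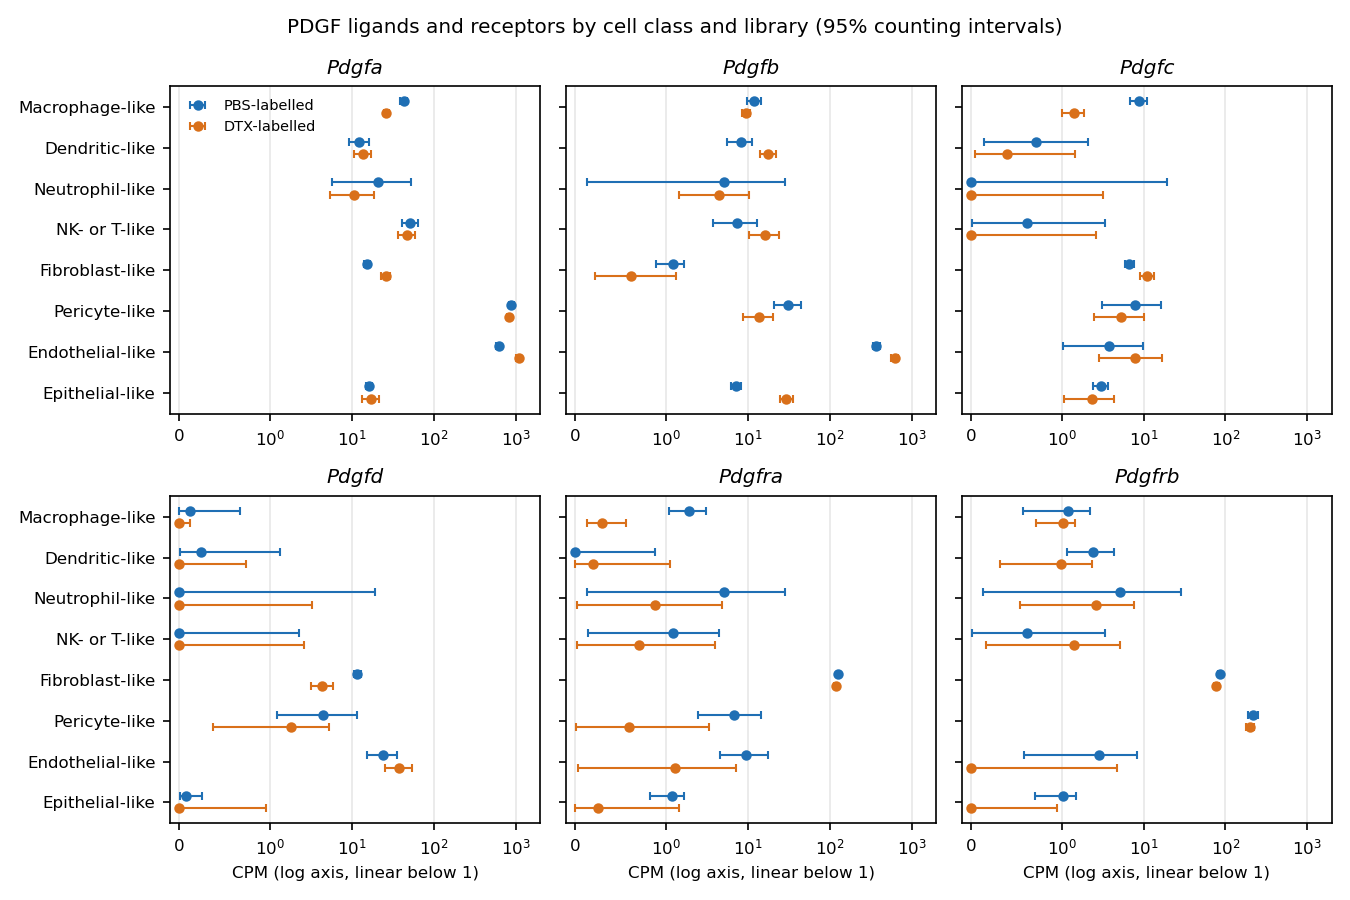
Level of each gene (CPM, log axis that is linear below 1) in the 8 compared cell classes of the PBS-labelled (blue) and DTX-labelled (orange) library, with 95% counting intervals. *Pdgfa* is highest in pericyte-like and endothelial-like cells, *Pdgfb* in endothelial-like cells, *Pdgfra* in fibroblast-like cells and *Pdgfrb* in pericyte-like cells, in both libraries.

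In macrophage-like cells *Pdgfa* stood at 42.7 CPM (38.4 to 47.4, 356 UMIs in 1701 cells) in the PBS-labelled and 26.1 CPM (24.3 to 27.9, 799 UMIs in 4439 cells) in the DTX-labelled library. The log2 ratio of DTX-labelled to PBS-labelled, with 1 CPM added to both, was -0.69, and its interval without that addition was -0.90 to -0.53. Thinned detection was 7.23% of 1479 and 4.70% of 4300 cells, with 222 and 139 shallower cells left out, against 15.2% and 11.9% without thinning. The median cell had 4714 and 6731 UMIs. The UMIs were spread over many cells, with at most 6 and 11 UMIs in any one cell. Per 10000 UMIs of the 10 fibroblast genes, macrophage-like cells held 443 and 1290.2 *Pdgfa* UMIs and fibroblast-like cells 1.52 and 3.53. The same ratio was 322 and 389.8 in pericyte-like and 754 and 2692 in endothelial-like cells, and the part of RNA from other cells in the macrophage level was not tested.

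The difference was not present within the subcluster that held most macrophage-like cells of the PBS-labelled library. Macrophage-like cells were divided into 5 subclusters without using the 6 genes. The *C1qa*-like subcluster, which carries the complement genes of resident macrophages, held 1484 of 1701 macrophage-like cells in the PBS-labelled library and 1240 of 4439 in the DTX-labelled library. Its *Pdgfa* level was 45.4 CPM (40.6 to 50.7) and 46.7 CPM (41.9 to 51.8), a log2 ratio of 0.04 (-0.18 to 0.26). The *Vcan*-like subcluster, which carries genes of young monocyte-derived cells, had 97 and 1917 cells and held 16.4 CPM (7.86 to 30.2) and 12.1 CPM (10.3 to 14.0). The *Cd9*-like subcluster, led by *Arg1* and *Spp1*, had 9 cells with no *Pdgfa* UMI in the PBS-labelled library and 1063 cells at 33.8 CPM (29.6 to 38.4) in the DTX-labelled library, and the 95% upper limit for the 9 cells was 81.4 CPM. Weighting the subclusters of the DTX-labelled library by the mix found in the PBS-labelled library gave 42.6 CPM and a log2 ratio of -0.01, in place of -0.69. This weighting and the single subcluster ratio were added after the values had been seen. At resolution 0.6 the *C1qa*-like subcluster had 584 and 220 cells, and a *Ccl7*-like subcluster of 47 and 793 cells was separate.

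At a finer clustering, the highest macrophage level of *Pdgfa* in the DTX-labelled library belonged to an unnamed subcluster led by *Ctsk*, *Acp5* and *Nfatc1*, genes best known from osteoclasts. It held 199 DTX-labelled cells with 102 CPM of *Pdgfa* (87.5 to 118) and 39.5 CPM of *Pdgfb* (30.8 to 49.8). These cells were 4.48% of the macrophage-like cells of that library and held 22.9% of their *Pdgfa* and 24.2% of their *Pdgfb* UMIs. Its 19 PBS-labelled cells held 39.3 CPM of *Pdgfa* (12.8 to 91.8, 5 UMIs). The subcluster was singled out after its values had been seen. Macrophage-like cells with a UMI of *Mrc1* after thinning held 50.5 CPM of *Pdgfa* against 39.7 CPM in those without in the PBS-labelled library, and 30.5 against 24.9 CPM in the DTX-labelled library. Both intervals of that ratio included 0 (-0.17 to 0.87 and -0.09 to 0.67 on the log2 scale).

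**Figure D2:**
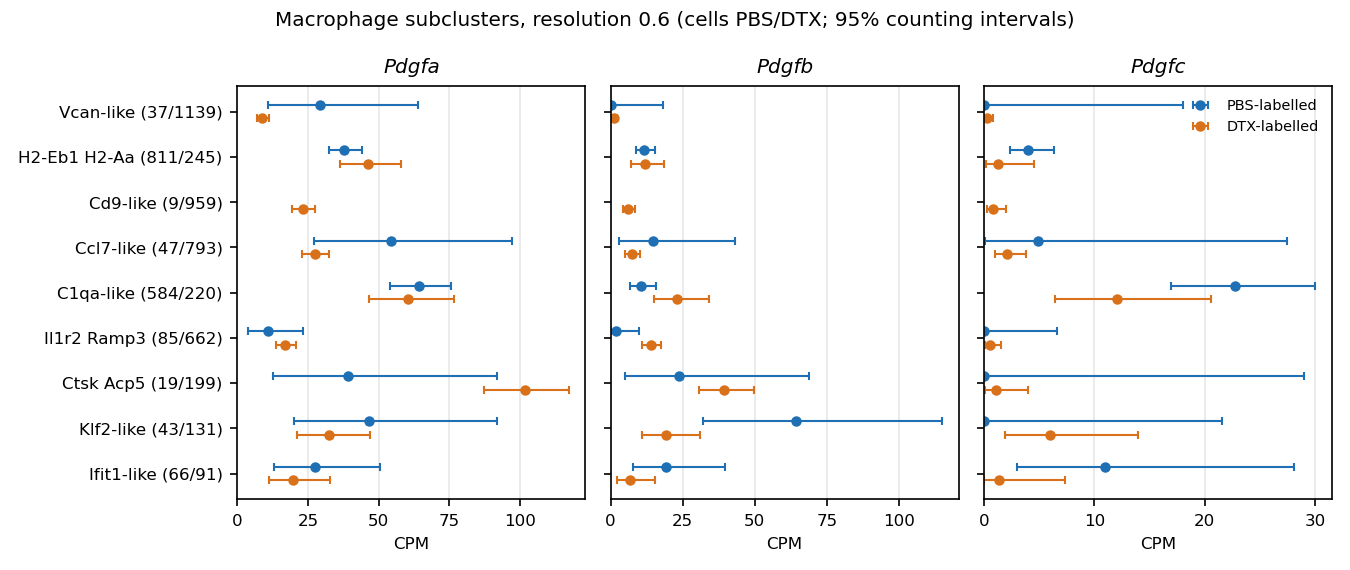
Levels of *Pdgfa*, *Pdgfb* and *Pdgfc* (CPM, linear axes) in the 9 macrophage subclusters of the finer clustering, with 95% counting intervals and, in brackets, the cells of the PBS-labelled and DTX-labelled library. Groups of fewer than 15 cells are not drawn. The *Ctsk* and *Acp5* subcluster has the highest *Pdgfa* level of the DTX-labelled library (102 CPM), and the *C1qa*-like subcluster has the highest *Pdgfc* level in both libraries.

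NK- or T-like cells, chosen as the class that should lack *Pdgfa*, did not lack it. They held 51.0 CPM (40.6 to 63.2) and 46.6 CPM (36.0 to 59.2), and thinned detection was 5.94% of 219 (3.20% to 9.94%) and 3.97% of 151 (1.47% to 8.45%), at median depths of 6534 and 8059 UMIs. The thinned shares of macrophage-like cells thus lay within the intervals of this class. The *Pdgfa* log2 ratio of NK- or T-like cells was -0.13 (-0.62 to 0.35). After thinning it was -1.74, with 30 and 6 UMIs left. A cluster with *Cd3e* and the gamma delta T cell genes *Trdc* and *Tcrg-C1* stood at 130 CPM (86.3 to 188, 41 cells) and 114 CPM (71.5 to 173, 29 cells). The other cluster of this class, led by *Gzma* and *Gzmc*, stood at 38.9 and 35.9 CPM. It had the T cell genes *Icos*, *Trbc1* and *Trbc2* among its leading genes, so it was not clearly of NK cells alone. Few NK- or T-like cells carried *Pdgfa* UMIs, with 4 cells of each library at 5 or more and up to 12 UMIs in 1 cell. Dendritic-like cells had a thinned share of 1.34% of 449 (0.49% to 2.89%) in the PBS-labelled library, with an interval below that of macrophage-like cells, and of 2.29% of 436 (1.11% to 4.18%) in the DTX-labelled library, with an interval that overlapped that of macrophage-like cells (4.08% to 5.37%).

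In fibroblast-like cells *Pdgfa* stood at 15.1 CPM (13.8 to 16.4) and 25.9 CPM (22.8 to 29.3), a log2 ratio of 0.74 (0.56 to 1.00). It was concentrated in an unnamed subcluster led by *Acta2*, *Spp1*, *Col12a1* and *Lrrc15*, genes of contractile and matrix-producing fibroblasts. That subcluster was 9.04% and 14.2% of fibroblast-like cells and held 55.0% and 43.3% of their *Pdgfa* UMIs, at 62.3 CPM (55.3 to 69.8) and 55.1 CPM (45.2 to 66.4). The *Gpnmb*-like subcluster stood at 2.84 and 2.79 CPM. In fibroblast-like cells with a *Pdgfa* UMI, pericyte markers stood at 742 and 612 CPM, against 437 and 365 CPM in the whole class and 14127 and 12506 CPM in pericyte-like cells, and their part in the *Pdgfa* level was not tested. The pericyte markers include *Acta2*, which also leads the fibroblast subcluster in which *Pdgfa* was concentrated. With the PBS-labelled mix of subclusters the fibroblast log2 ratio was 0.07. Endothelial-like cells had a log2 ratio of 0.82 (0.67 to 0.97), pericyte-like cells -0.10 (-0.23 to 0.02) and epithelial-like cells 0.07 (-0.32 to 0.45). The epithelial cluster led by *Ifi202b* and *Krt16* stood at 9.32 and 1.97 CPM (159 and 3 UMIs), a log2 ratio of -1.79 (-4.53 to -0.67). The epithelial cluster led by *Cst6* and *Krt79* stood at 26.3 and 26.7 CPM. In endothelial-like cells, 1 cell held 67 of 646 PBS-labelled UMIs and 1 held 50 of 839 DTX-labelled UMIs. Of fibroblast-like cells, 207 of 3065 and 92 of 657 had a *Pdgfa* UMI, and 32 and 14 had 5 or more. The intervals do not cover such differences between cells. Over all cells used, *Pdgfa* stood at 36.1 CPM in the PBS-labelled and 63.9 CPM in the DTX-labelled library.

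*Pdgfb* (ENSMUSG00000000489, chromosome 15, 79995874 to 80014977) encodes the ligand that recruits pericytes. Endothelial-like cells held 370 CPM (334 to 409, 388 UMIs) and 622 CPM (568 to 681, 479 UMIs), a log2 ratio of 0.75 (0.55 to 0.95). They held 47.9% and 46.4% of all *Pdgfb* UMIs, and thinned detection was 42.9% of 70 and 61.5% of 52 cells. In epithelial-like cells, taken as the background class, it was 1.77% of 2032 and 3.93% of 229 cells, at median depths of 12592 and 16070 UMIs against 12239 and 12620.5 in endothelial-like cells. *Pdgfa* and *Pdgfb* were both detected in 15 of 70 and 27 of 52 thinned endothelial-like cells, or 21.4% and 51.9%, where independent detection would give 17.8% and 47.3%.

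Epithelial-like cells had the highest ratio of *Pdgfb* among the classes. The level was 7.13 CPM (6.18 to 8.18, 203 UMIs in 2066 cells) in the PBS-labelled and 29.6 CPM (24.5 to 35.6, 115 UMIs in 235 cells) in the DTX-labelled library, a log2 ratio of 1.91 (1.71 to 2.39). Few cells carried it. In the DTX-labelled library 27 cells had a UMI, and 11 of these had 5 or more. All but 5 of these UMIs lay in the epithelial cluster led by *Cst6* and *Krt79*, which stood at 9.55 and 46.6 CPM, while the cluster led by *Ifi202b* and *Krt16* stood at 5.51 and 3.29 CPM. When cells were thinned for ratios, 38 and 6 UMIs remained and the log2 ratio was 0.45. The separate random thinning used for detection left a UMI in 36 and 9 cells, so this ratio depended on the draw. Endothelial markers stood at 53.7 and 19.9 CPM in the epithelial-like cells with *Pdgfb*, against 13.6 and 14.2 CPM in all of that class. In endothelial-like cells they stood at 6263 and 7141 CPM, and their part in the *Pdgfb* level was not tested.

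Dendritic-like cells held 8.16 CPM (5.65 to 11.4) and 17.8 CPM (14.3 to 21.9) of *Pdgfb*, a log2 ratio of 1.03 (0.54 to 1.74), which fell to 0.43 when cells were clustered more finely. That clustering left 232 and 264 cells in the class, in place of 460 and 439. In pericyte-like cells the level was 31.3 CPM (20.8 to 45.2) and 13.7 CPM (8.68 to 20.5), a log2 ratio of -1.14 (-2.06 to -0.35). This rested on 7 cells with a UMI in each library, and 1 cell held 12 of the 28 PBS-labelled UMIs. Epithelial markers stood at 2815 and 2543 CPM in those cells, against 1183 and 324 CPM in all pericyte-like cells, and their part in the difference was not tested. Macrophage-like cells held 12.0 CPM (9.77 to 14.6) and 9.56 CPM (8.49 to 10.7), a log2 ratio of -0.30 (-0.66 to 0.01). Over all cells, *Pdgfb* stood at 9.97 and 18.8 CPM.

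**Figure D3:**
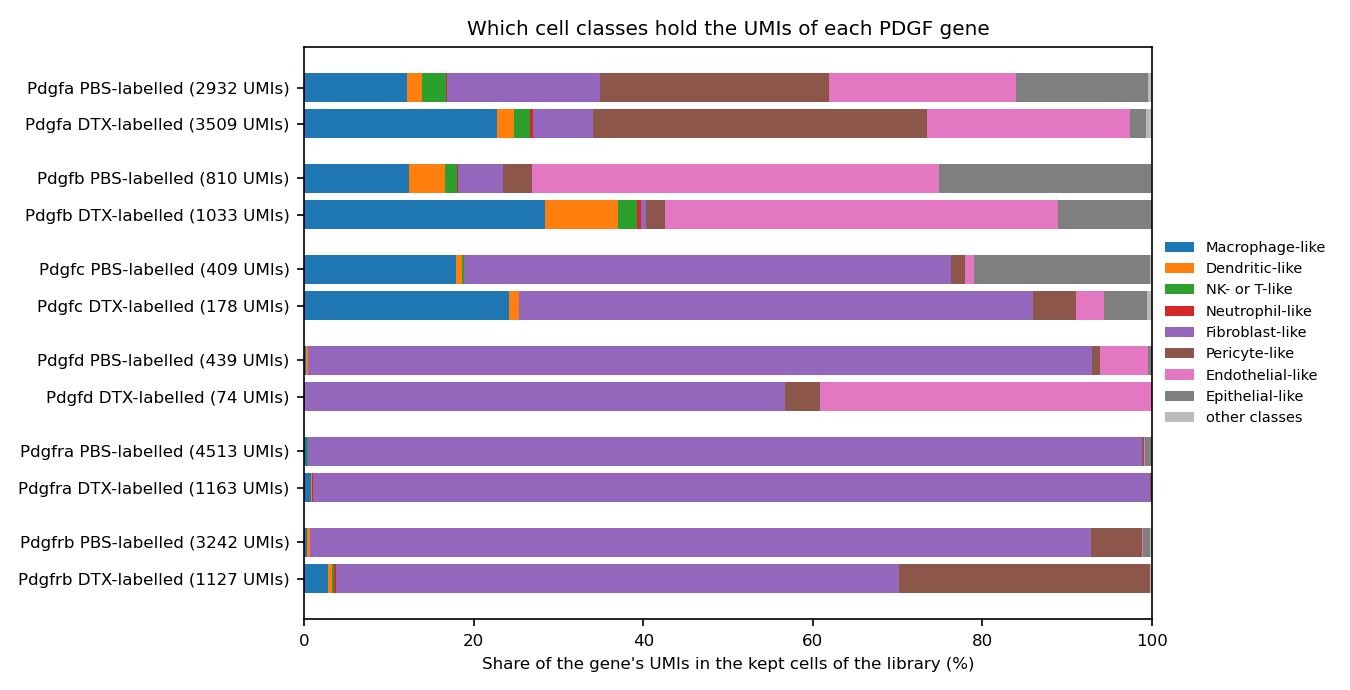
Share of the UMIs of each gene (% of all its UMIs in the cells used, given in brackets) that each cell class held in the PBS-labelled and DTX-labelled library. *Pdgfra* lies almost wholly in fibroblast-like cells (98.4% and 98.7%), whereas most *Pdgfa* UMIs are divided among vessel wall, macrophage-like and fibroblast-like cells. Epithelial-like cells hold 15.7% of *Pdgfa* UMIs in the PBS-labelled and 1.88% in the DTX-labelled library.

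*Pdgfc* (ENSMUSG00000028019, chromosome 3, 81036416 to 81214040) encodes a latent ligand of PDGFRα. Fibroblast-like cells held 57.5% and 60.7% of its UMIs. Their level was 6.71 CPM (5.88 to 7.62, 235 UMIs) and 11.1 CPM (9.11 to 13.4, 108 UMIs), a log2 ratio of 0.65 (0.39 to 1.06). It was highest in the subcluster led by *Acta2* and *Spp1*, with 14.8 and 21.7 CPM, and in the *Plac8*-like subcluster, with 10.3 and 14.3 CPM. Epithelial-like cells held 2.99 and 2.32 CPM (85 and 9 UMIs), with a log2 ratio of -0.26 whose interval included 0 (-1.54 to 0.63).

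Macrophage-like cells showed the opposite difference for *Pdgfc*, with 8.77 CPM (6.87 to 11.0, 73 UMIs) in the PBS-labelled and 1.40 CPM (1.01 to 1.89, 43 UMIs) in the DTX-labelled library. The log2 ratio was -2.02 with 1 CPM added and -2.64 (-3.22 to -2.08) without. Unlike that of *Pdgfa*, this difference was also present within the *C1qa*-like subcluster of resolution 0.3, which stood at 9.68 and 3.51 CPM. At the PBS-labelled mix of subclusters the log2 ratio was -1.21, and it was -0.93 at resolution 0.6 and -1.15 with subset markers left out. At resolution 0.6 the *C1qa*-like subcluster had 584 and 220 cells, beside a *Ccl7*-like subcluster of 47 and 793 cells. Whether the *C1qa*-like subcluster of resolution 0.3 held the same kinds of cells in both libraries was not tested. In the PBS-labelled library the level was 16.2 CPM (10.5 to 23.9) in thinned macrophage-like cells with a UMI of *Mrc1* and 4.25 CPM (1.56 to 9.25) in those without, a log2 ratio of 1.71 (0.61 to 3.50). In the DTX-labelled library these levels rested on 8 and 4 UMIs. Per 10000 fibroblast UMIs, macrophage-like cells held 90.9 (71.2 to 114) and 69.4 (50.2 to 93.5) *Pdgfc* UMIs against 0.675 and 1.51 in fibroblast-like cells. Thinned detection of *Pdgfc* in macrophage-like cells was 2.10% of 1479 (1.43% to 2.96%) and 0.279% of 4300 cells (0.144% to 0.487%). In NK- or T-like cells it was 0 of 219 and 0 of 151 cells, with intervals that reached 1.67% and 2.41%. The intervals of macrophage-like and NK- or T-like cells thus overlapped in both libraries. The limit of 3 counts for a count of 0 lies lower, at 1.37% and 1.99%.

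*Pdgfd* (ENSMUSG00000032006, chromosome 9, 6168584 to 6378850) encodes a latent ligand of PDGFRβ. In fibroblast-like cells it stood at 11.6 CPM (10.5 to 12.8, 406 UMIs) and 4.32 CPM (3.11 to 5.84, 42 UMIs), a log2 ratio of -1.24 with 1 CPM added and -1.42 (-1.92 to -0.96) without. The level was lower in the DTX-labelled library in all 5 subclusters with at least 20 UMIs. It went from 17.4 to 10.1 CPM in the subcluster led by *Ctla2a* and *Gpx3*, from 13.5 to 6.20 CPM in the *Plac8*-like and from 9.95 to 3.73 CPM in the *Gpnmb*-like subcluster. These had 52, 201 and 78 DTX-labelled cells, and their UMIs were part of the 42 of the class, so each level rested on few UMIs. At the PBS-labelled mix of subclusters the log2 ratio was -0.97. Endothelial-like cells held 23.8 CPM (15.4 to 35.2, 25 UMIs) and 37.7 CPM (25.2 to 54.1, 29 UMIs), with a log2 ratio of 0.64 whose interval included 0 (-0.16 to 1.49). Macrophage-like cells, the background class for this gene, held 1 UMI in 1701 cells and 0 in 4439 cells.

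*Pdgfra* (ENSMUSG00000029231, chromosome 5, 75152292 to 75198215) encodes PDGFRα. Fibroblast-like cells held 4443 of its 4513 UMIs in the PBS-labelled and 1148 of its 1163 UMIs in the DTX-labelled library, or 98.4% and 98.7%. Their level was 127 CPM (123 to 131) and 118 CPM (111 to 125), a log2 ratio of -0.10 (-0.20 to -0.01). Among cells with 2000 genes or fewer, the limit in the methods, that ratio was -0.89. It came from 538 and 57 fibroblast-like cells, and cells under that limit held only 313 and 22 *Pdgfra* UMIs over all classes. Thinned detection in fibroblast-like cells of any gene number was 21.2% of 2983 and 20.5% of 650 cells, and 61.0% and 65.3% without thinning, at median depths of 11178 and 13960 UMIs. In NK- or T-like cells the thinned shares were 0.913% and 0.662%. Fibroblast-like cells were also a smaller part of the DTX-labelled library, and the level over all cells was 55.6 CPM in the PBS-labelled and 21.2 CPM in the DTX-labelled library, while that of *Pdgfa* differed in the other direction.

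The subclusters of fibroblast-like cells differed between the libraries in both directions. *Pdgfra* was lower in the DTX-labelled library in the subcluster led by *Coch*, *Fmod* and *Enpp2*, with 156 CPM (140 to 174, 272 cells) and 89.0 CPM (72.9 to 108, 122 cells), a log2 ratio of -0.81 (-1.14 to -0.49). It was higher in the subcluster led by *Acta2* and *Spp1*, with 72.7 CPM (65.2 to 80.9, 277 cells) and 112 CPM (97.4 to 127, 93 cells), a log2 ratio of 0.61 (0.37 to 0.87). The *Plac8*-like subcluster also stood higher, with 98.7 and 123 CPM (0.32, 0.14 to 0.50). In the *Gpnmb*-like subcluster the levels of 154 CPM (146 to 163, 878 cells) and 144 CPM (123 to 169, 78 cells) had a log2 ratio of -0.09 (-0.34 to 0.15). That subcluster took its name from 3 of 5 raised markers, none of which was among its leading genes, *Wfdc12*, *Ccl8* and *Vcam1*. A small subcluster led by *Cd74*, *Lyz2* and other myeloid genes stood at 66.0 CPM (44 cells) and 123 CPM (45 cells). In the PBS-labelled library, the *Acta2* and *Spp1* subcluster thus had the lowest *Pdgfra* level and the highest *Pdgfa* level of the fibroblast subclusters with over 50 cells.

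**Figure D4:**
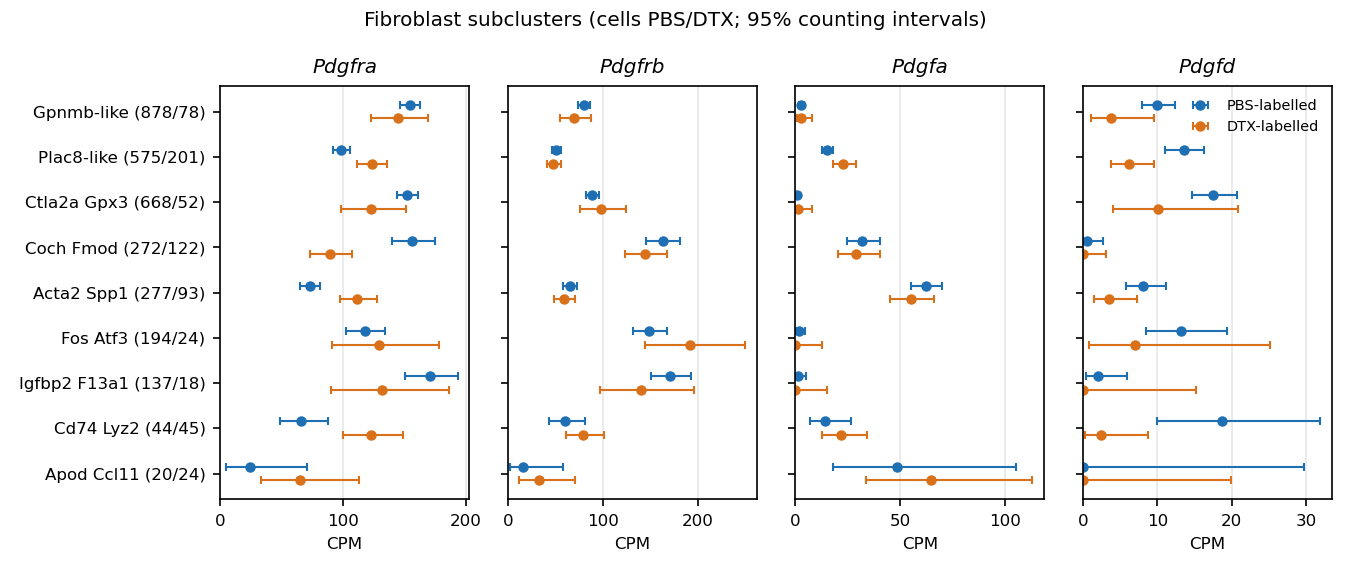
Levels of *Pdgfra*, *Pdgfrb*, *Pdgfa* and *Pdgfd* (CPM, linear axes that differ between panels) in the 9 fibroblast subclusters, with 95% counting intervals and, in brackets, the cells of the PBS-labelled and DTX-labelled library. *Pdgfra* is lower in the *Coch* and *Fmod* subcluster of the DTX-labelled library (156 and 89.0 CPM) and higher in the *Acta2* and *Spp1* subcluster (72.7 and 112 CPM).

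Fibroblast-like cells were also split by single marker genes. After thinning, fibroblast-like cells with a UMI of *Gpnmb* held 146 CPM of *Pdgfra* against 121 CPM in those without in the PBS-labelled library (log2 ratio 0.26, 0.06 to 0.47), and 134 against 111 CPM in the DTX-labelled library (0.26, -0.24 to 0.75). Cells with a UMI of *En1*, a gene of a dorsal fibroblast lineage, held 167 against 123 CPM in the PBS-labelled library (0.44, 0.22 to 0.67) and 119 against 118 CPM in the DTX-labelled library (0.01, -0.64 to 0.62). *Pdgfa* went the other way in the PBS-labelled library, with 5.30 CPM in fibroblast-like cells with a UMI of *Gpnmb* and 20.1 CPM in those without (-1.74, -2.84 to -1.10). *Pdgfrb* was also higher with a UMI of *Gpnmb*, at 100 against 78.2 CPM in the PBS-labelled library (0.36, 0.11 to 0.61). In the DTX-labelled library it stood at 107 against 56.3 CPM (0.91, 0.31 to 1.54). Split by *En1*, the *Pdgfrb* log2 ratios were -0.04 (-0.35 to 0.25) and -0.15 (-1.05 to 0.66).

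Outside fibroblast-like cells, *Pdgfra* was set against the other RNA of fibroblasts. Macrophage-like cells held 1.92 CPM (16 UMIs) and 0.293 CPM (9 UMIs), which is 19.9 (11.4 to 32.3) and 14.5 (6.65 to 27.6) UMIs per 10000 fibroblast UMIs, against 12.8 and 16.1 in fibroblast-like cells. Their intervals included the values of fibroblast-like cells. In the 25 PBS-labelled epithelial-like cells with a *Pdgfra* UMI, fibroblast markers stood at 12185 CPM, against 800 CPM in the whole class.

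*Pdgfrb* (ENSMUSG00000024620, chromosome 18) encodes PDGFRβ. Its level was highest in pericyte-like cells, with 218 CPM (189 to 251, 195 UMIs) and 198 CPM (177 to 221, 333 UMIs), a log2 ratio of -0.14 (-0.40 to 0.12). Fibroblast-like cells held 85.3 CPM (82.2 to 88.4) and 77.1 CPM (71.6 to 82.8), a log2 ratio of -0.14 (-0.26 to -0.03). With fewer fibroblast-like and more pericyte-like cells in the DTX-labelled library, the fibroblast share of all *Pdgfrb* UMIs was 92.1% in the PBS-labelled and 66.5% in the DTX-labelled library, and that of pericyte-like cells was 6.01% and 29.5%. Thinned detection was 28.1% of 57 and 33.3% of 108 pericyte-like cells and 14.9% and 11.8% of fibroblast-like cells, against 0.457% and 0.662% of NK- or T-like cells. Endothelial-like cells held 3 UMIs in the PBS-labelled and 0 in the DTX-labelled library. Fibroblast markers stood at 18205 and 12627 CPM in pericyte-like cells, against 81444 and 59713 CPM in fibroblast-like cells, and their part in the *Pdgfrb* level was not tested.

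Among fibroblast-like cells, *Pdgfrb* ranked the subclusters differently from *Pdgfra*. It was highest in the subclusters led by *Igfbp2* and *F13a1* (171 and 140 CPM), by *Coch* and *Fmod* (163 and 144 CPM) and by the stress genes *Fos* and *Atf3* (149 and 191 CPM). The *Plac8*-like subcluster had 51.2 and 48.1 CPM. Both receptors were detected in 86 of 2983 and 12 of 650 thinned fibroblast-like cells, or 2.88% (2.31% to 3.55%) and 1.85% (0.96% to 3.20%), where independent detection would give 3.16% and 2.42%. In 66.8% and 69.5% of those cells neither receptor was detected at this depth.

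Counting only members with 50 or more UMIs in a class, 5 of 20 pairs of member and class differed at least 2-fold between the libraries. In macrophage-like cells 1 of 3 members was lower (*Pdgfc*) and 0 higher, where 3.3% of 10175 genes were lower and 1.62% higher. In fibroblast-like cells 1 of 5 was lower (*Pdgfd*) and 0 higher, beside 1.4% and 2.67% of 11814 genes. In epithelial-like cells 1 of 3 was higher (*Pdgfb*) and 0 lower, beside 2.67% and 2.07% of 10288 genes. In dendritic-like cells 1 of 2 was higher (*Pdgfb*) and 0 lower, beside 0.958% and 1.56% of 7936 genes. In pericyte-like cells 1 of 3 was lower (*Pdgfb*) and 0 higher, beside 2.11% and 2.22% of 5637 genes. None of 3 members reached 2-fold in endothelial-like cells, beside 2.65% lower and 1.86% higher of 4990 genes, and *Pdgfa* did not in NK- or T-like cells, beside 1.29% and 1.12% of 6348 genes. Neutrophil-like cells had no member with 50 UMIs. The median log2 ratio of all genes counted was 0.06 in the macrophage-like class and 0.12 in the fibroblast-like class.

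**Figure D5:**
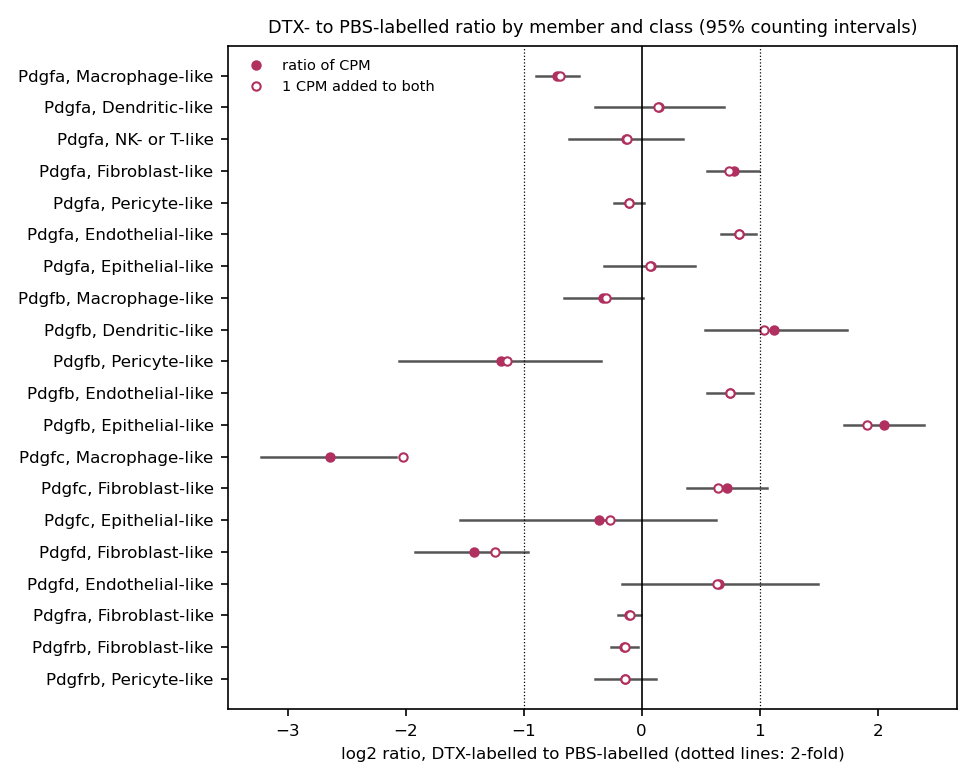
Ratio of the DTX-labelled to the PBS-labelled library (log2 axis) for the 20 pairs of gene and class with at least 50 UMIs. Filled points are ratios of CPM with their 95% counting intervals, open points have 1 CPM added to both levels, and dotted lines mark 2-fold. *Pdgfc* in macrophage-like cells is the lowest (-2.02 with 1 CPM added) and *Pdgfb* in epithelial-like cells the highest (1.91).

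Most of 41 listed genes of the PDGF pathway stayed under 2-fold. Of the 34 that reached 50 UMIs in macrophage-like cells, 1 was at least 2-fold lower and 2 higher, beside 3.3% and 1.62% of all genes, and their median log2 ratio was 0.10, beside 0.06 over all genes. *Nrp1*, a co-receptor of PDGF and of VEGF, was lower, with 85.0 and 32.5 CPM (-1.36, -1.53 to -1.25). *Spry2*, a feedback inhibitor of receptor tyrosine kinases, was higher, with 3.60 and 9.10 CPM (1.13, 0.79 to 1.93), and the proteoglycan co-receptor *Cspg4* rested on 1 and 49 UMIs. *Plat*, the tissue plasminogen activator that cleaves latent PDGF-C, stood at 6.84 and 3.13 CPM (-0.93, -1.62 to -0.63), and *Egr1*, an immediate early gene, at 121 and 76.7 CPM (-0.66, -0.77 to -0.55).

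In fibroblast-like cells 1 of 40 pathway genes was at least 2-fold lower and 0 higher, beside 1.4% and 2.67% of all genes, with a median log2 ratio of 0.15, beside 0.12 over all genes. The one was *Stat5b*, a transcription factor activated by growth factor receptors, with 106 and 39.5 CPM (-1.41, -1.59 to -1.28). It is also a leading gene of the *Gpnmb*-like subcluster, which was 878 of 3065 fibroblast-like cells in the PBS-labelled and 78 of 657 in the DTX-labelled library. The genes next in size were 3 inhibitors of receptor signalling, the phosphatase *Ptprj* (16.3 and 30.6 CPM, 0.87), *Spry4* (4.45 and 8.02 CPM, 0.73) and the ubiquitin ligase *Cbl* (24.6 and 41.1 CPM, 0.71), and the proprotein convertase *Pcsk5* (95.2 and 149 CPM, 0.64). All of these were under 2-fold.

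In pericyte-like cells 3 of 33 pathway genes were lower and 1 higher, beside 2.11% and 2.22% of all genes. The cell cycle gene *Ccnd1* had 120 and 37.5 CPM (-1.65, -2.15 to -1.21), *Stat5b* 32.4 and 13.7 CPM (-1.19, -2.10 to -0.40), *Cspg4*, a pericyte surface marker also called NG2, 125 and 61.9 CPM (-1.01, -1.42 to -0.62), and *Ptprj* 19.0 and 44.6 CPM (1.19, 0.46 to 2.08). In epithelial-like cells 1 of 39 was lower, *Spry1* (8.04 and 3.35 CPM, -1.06), and 2 were higher, *Pcsk6* (13.6 and 28.8 CPM, 1.03) and *Cspg4* (3.51 and 9.53 CPM, 1.22), beside 2.07% lower and 2.67% higher of all genes. In endothelial-like cells 2 of 33 were lower, the adaptor *Gab1* (40.1 and 18.2 CPM, -1.10) and the phosphatase *Dusp6* (54.4 and 24.7 CPM, -1.11), and 0 higher, beside 2.65% and 1.86% of all genes. Both were named after their values were seen. No pathway gene reached 2-fold in dendritic-like cells (29 genes, beside 1.56% lower and 0.958% higher of all genes) or NK- or T-like cells (28 genes, beside 1.29% and 1.12%).

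The genes most like each member were ranked by Pearson's r of log2(CPM + 10) over 16 points, the 8 classes in each library, among 12141 other genes. The points share 2 libraries and 8 classes, so r describes the class pattern only. *Pdgfa* was closest to *Mcam* (0.97), *Pcp4l1* (0.97), *Sorbs2* (0.97), *Tspan12* (0.97) and *Sncg* (0.96), of which *Mcam* is an adhesion molecule of pericytes and endothelium. *Pdgfb* was closest to *Rapgef5*, *Spns2*, *Pald1*, *Afap1l1* and *Cracr2b* (0.95 to 0.97). *Pdgfc* had no close match, and *Nacc2*, *Aga*, *Slc35f5*, *Bag3* and *Thra* ranged from 0.86 to 0.89. *Pdgfd* was closest to *Fat4* (0.99), *Jam2*, *Ackr1*, *Tmem204* and *Ramp2* (0.97 to 0.98). *Pdgfra* was closest to *Cilp*, *Bdkrb1*, *Dpep1*, *Nfasc* and *Ltbp2* (0.98 to 0.99), and *Pdgfrb* to *Nkd1*, *Galnt16*, *Kcne4*, *Slc6a17* and *Smarca1* (0.99). Between members, *Pdgfb* and *Pdgfd* were the most alike (0.80), followed by *Pdgfa* and *Pdgfb* (0.72), while *Pdgfa* and *Pdgfra* had an r of -0.12.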

How the data were processed

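Live cells of mouse back skin wounds were profiled by 10x single-cell 3′ RNA sequencing, with 1 library per condition and 3 pooled mice per library, and the methods state technical but no biological replicates. The authors deposited raw UMI counts per gene and cell, not normalized, made with Cell Ranger against mm10; the submitters' processing notes and the count header give Cell Ranger 6.1.1. The paper and the labels describe the control mice differently, and the paper's cell numbers per group are the reverse of those in the labelled files, whereas its groups differ in the proportions of immune cells, fibroblasts, epithelial cells and *C1qa* macrophages in the direction that the labelled files show. The labels were followed.

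Cells had to have 500 or more genes and no more than 6% of mitochondrial UMIs. The limit of 2000 genes per cell that the methods state served as an alternative. Doublets were scored with Scrublet in scanpy 1.11.5, which marked 382 PBS-labelled cells and called none in the DTX-labelled library, where the highest 8% of scores (575 cells) were removed. Counts were clustered in R 4.3.3 with Seurat 5.3.0 (2000 variable genes, 30 components, resolution 0.2, and 0.3 or 0.6 for subclusters), with the 6 genes left out of the variable genes. Clusters were named from marker lists. The rules that score markers were revised after clusters had been seen: subclusters are set against all other cells of their class, and 3 leading myeloid genes bar a fibroblast name. Classes with at least 50 cells in both libraries were compared, which leaves out Langerhans-like, mast-like and myocyte-like cells.

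Class sums of UMIs were scaled to CPM, and 1 CPM was added before log2 ratios, which understates the change of low genes; the intervals of ratios are for the ratio without that addition. A gene counts as 2-fold apart at a log2 ratio of at least 1 in size among genes with at least 50 UMIs in the class. A count of 0 allows up to 3 counts. Shares of cells were taken after thinning cells to 2000 UMIs. Ratios after thinning came from a separate random thinning, so their UMIs need not match those shares. Intervals and ratios were tested on counts simulated with Poisson error, which is the error that the intervals assume. That simulation cannot show how the intervals hold where the UMIs of a gene lie in few cells. Levels of different genes were not compared, since 3′ counts depend on the gene. Named pathway genes are those past 2-fold in a class with a member past it and the 5 with the largest ratios in macrophage-like and fibroblast-like cells. The members and lists were chosen with earlier results of these data known. Values were computed with Python 3.11.15, numpy 2.4.6, scipy 1.17.1 and pandas 2.3.3 and drawn with matplotlib 3.10.9.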

Additional observations from a re-analysis of the deposited data

Results flagged for a closer look

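A difference between the libraries went in opposite directions in different cell classes for 3 ligands, with counting intervals of the ratios on opposite sides of 0. The difference between classes was not tested, since each condition has 1 library. *Pdgfa* had a log2 ratio of DTX-labelled to PBS-labelled of -0.69 in macrophage-like cells but of 0.74 in fibroblast-like and 0.82 in endothelial-like cells. At the PBS-labelled mix of subclusters, the macrophage and fibroblast ratios were -0.01 and 0.07. *Pdgfb* had a log2 ratio of -1.14 in pericyte-like cells but of 1.03 in dendritic-like, 0.75 in endothelial-like and 1.91 in epithelial-like cells. The pericyte ratio rested on 7 cells with a UMI in each library. After thinning in 1 random draw, the epithelial ratio was 0.45, from 38 and 6 UMIs, and the endothelial ratio 0.55. The dendritic ratio was 0.43 at the finer clustering, which left 232 and 264 cells in that class. *Pdgfc* had a log2 ratio of -2.02 in macrophage-like cells but of 0.65 in fibroblast-like cells. At the PBS-labelled mix of subclusters, these ratios were -1.21 and 0.23, and at resolution 0.6 they were -0.93 and 0.34.

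Signal also lay in classes with too few cells to be compared. The 37 Langerhans-like cells of the DTX-labelled library held 28.7 CPM of *Pdgfa* (14.8 to 50.2, 12 UMIs), against 9.44 CPM (4.88 to 16.5, 12 UMIs) in 123 cells of the PBS-labelled library. In the DTX-labelled library 5 cells held all 12 UMIs, and pericyte markers stood at 3353 CPM in those cells against 498 CPM in the whole class. The 18 mast-like cells of the DTX-labelled library held 77.8 CPM of *Pdgfa*, of which all 11 UMIs lay in 1 cell, and the 34 of the PBS-labelled library held none.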

How the results depend on the processing

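No paired analysis was possible because each condition has 1 library. Keeping only cells with 2000 genes or fewer moved the values most. The macrophage share of *Pdgfa* UMIs was then 70.6% and 85.1% (12.1% and 22.8%). The log2 ratio of *Pdgfra* in fibroblast-like cells was -0.89 (-0.10), with only 22 DTX-labelled *Pdgfra* UMIs left over all classes. There were 2 rather than 5 pairs of member and class at least 2-fold apart, fewer classes being left. Under that limit the log2 ratios of *Cspg4* and *Pcsk6* in epithelial-like cells were negative (-2.39 and -0.75) rather than positive. They came from 201 PBS-labelled and only 12 DTX-labelled cells, too few to show whether the direction depends on the limit. For *Pdgfa* in macrophage-like cells (-0.69) the log2 ratio was -0.47 at the finer clustering of all cells, -0.91 as a mean of per-cell CPM, -0.90 after thinning, 0.037 in the *C1qa*-like subcluster alone and -0.0058, 0.10 and -0.19 at the PBS-labelled mix of subclusters (resolution 0.3, resolution 0.6, subset markers left out), the last 4 chosen after seeing the data. For *Pdgfra* in fibroblast-like cells it was -0.22 when scaled by the median ratio and -0.24 after thinning. With no doublets removed, macrophage-like cells held 19.8% of the DTX-labelled *Pdgfa* UMIs. In *C1qa*-like macrophages the *Pdgfa* level was 64.3 and 60.3 CPM at resolution 0.6 and, in the DTX-labelled library, 40.6 CPM with subset markers left out; in *Vcan*-like macrophages of that library it was 8.80 CPM at resolution 0.6. The cause of these moves was not tested, apart from the cells an alternative leaves out. At the finer clustering of all cells, a cluster of 104 and 103 cells led by *Cst3* was named macrophage-like, and the dendritic-like class had 232 and 264 cells. Among the 5 pairs at least 2-fold apart, *Pdgfc* in macrophage-like, *Pdgfd* in fibroblast-like and *Pdgfb* in pericyte-like cells stayed so in all 9, 8 and 8 alternatives that gave a value, *Pdgfb* in epithelial-like cells in 7 of 8 (0.45 after thinning) and in dendritic-like cells in 6 of 8 (lowest 0.43). These counts leave out the PBS-labelled mix of subclusters (resolution 0.3, resolution 0.6, subset markers left out). At that mix *Pdgfd* in fibroblast-like cells was under 2-fold in each setting (-0.971, -0.924 and -0.997). *Pdgfc* in macrophage-like cells was under 2-fold at resolution 0.6 only (-1.21, -0.93 and -1.15). The thinned epithelial ratio came from 1 random draw with 38 and 6 UMIs, and another draw left a UMI in 36 and 9 cells. For *Pdgfb* in pericyte-like cells the alternatives used nearly the same few cells, and thinning left 5 and 3 UMIs, so they could hardly change that ratio. No alternative could be run that replaces the missing replicate libraries, and depth limits statements on members with few UMIs in a class.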
